A study of Mus musculus with 6 samples.

Results

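The genes described here are Fos, Fosb, Fosl2, Jun, Junb and Jund, which encode subunits of the transcription factor AP-1, and Arc, Npas4, Btg2 and Ier2, other immediate early genes that cells switch on within minutes of a stimulus. These 10 were taken by gene name from a table of 32201 genes, and each name matched 1 row. RNA sequencing measured them in the hippocampus of male C57BL/6N mice aged 8 weeks, an inbred laboratory strain. There were 6 libraries, 3 from mice that received baicalin (20 mg/kg) and 3 from mice that received saline. Baicalin is a plant flavonoid glucuronide obtained from Chinese skullcap root. Both groups had gone through chronic unpredictable mild stress, a rotating schedule of mild stressors such as restraint, cage tilt and white noise that is used to model depression in rodents. The labels also describe unstressed mice, which are not analysed here, so no value below shows what the stress itself did. The labels do not say whether the 3 libraries of a group are 3 animals. The spread behind the p-values may therefore be partly technical.

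FOS and JUN proteins pair through a leucine zipper to form AP-1, a transcription factor that couples a brief signal at the membrane to longer-lasting changes in gene expression. In hippocampal neurons, synaptic activity and calcium entry switch on Fos, Fosb, Junb, Arc and Npas4 through phosphorylated CREB and serum response factor, and for that reason their transcripts are widely used as marks of recently active cells. Jund is by contrast expressed at a steady level in most cells, and Jun is also induced by stress kinases. Arc protein acts at the synapse, where it helps to remove AMPA receptors, and NPAS4 is a neuron-specific transcription factor that shapes inhibitory input.

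The promoters of Fos, Fosb, Junb and Btg2 are shown because the first of these had lower transcript levels with baicalin in every library, the next pair had lower means, and Btg2 went the other way. They run from 250 bases before to 50 bases after the RefSeq transcription start on GRCm38.p6, at chr12:85473640-85473939, plus strand for Fos, chr7:19309996-19310295, minus strand for Fosb, chr8:84978699-84978998, minus strand for Junb and chr1:134079106-134079405, minus strand for Btg2. Each is written 5′ to 3′ along the gene, with capitals for the CRE TGACGTCA, the CRE half-site TGACG and the TATA box TATAAA, searched on both strands.
Fos: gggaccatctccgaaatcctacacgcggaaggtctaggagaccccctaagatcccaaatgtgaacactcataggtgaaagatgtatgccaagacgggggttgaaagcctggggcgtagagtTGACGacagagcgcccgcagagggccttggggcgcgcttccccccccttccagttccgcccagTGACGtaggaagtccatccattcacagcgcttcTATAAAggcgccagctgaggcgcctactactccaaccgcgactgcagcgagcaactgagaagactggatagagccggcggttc
Fosb: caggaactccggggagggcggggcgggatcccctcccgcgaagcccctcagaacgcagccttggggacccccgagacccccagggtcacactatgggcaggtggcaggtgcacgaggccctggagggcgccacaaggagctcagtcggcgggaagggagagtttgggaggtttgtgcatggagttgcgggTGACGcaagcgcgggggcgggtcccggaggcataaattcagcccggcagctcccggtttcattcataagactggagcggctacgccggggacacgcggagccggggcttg
Junb: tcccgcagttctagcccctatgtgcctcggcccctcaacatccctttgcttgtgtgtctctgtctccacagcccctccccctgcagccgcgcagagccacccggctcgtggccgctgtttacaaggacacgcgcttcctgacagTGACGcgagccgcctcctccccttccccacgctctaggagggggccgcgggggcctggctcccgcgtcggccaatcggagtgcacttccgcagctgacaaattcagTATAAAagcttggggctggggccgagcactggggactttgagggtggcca
Btg2: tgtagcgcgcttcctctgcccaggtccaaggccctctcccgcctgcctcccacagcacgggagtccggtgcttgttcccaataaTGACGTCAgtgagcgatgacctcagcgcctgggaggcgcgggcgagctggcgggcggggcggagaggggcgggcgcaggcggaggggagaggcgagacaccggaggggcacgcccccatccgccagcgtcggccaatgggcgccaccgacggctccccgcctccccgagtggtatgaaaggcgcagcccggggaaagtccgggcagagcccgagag
The table held a promoter for 8 of the 10 genes, all but Arc and Ier2. The CRE half-site, to which CREB can bind, was found in 5 of these 8 (Fos, Fosb, Junb, Npas4 and Btg2), against 20.9% of 32544 promoters of the same length. The whole CRE, which contains the half-site on both strands, was found in Btg2 alone among the 8, at -166 to -159, against 1.80% of all promoters. In Fos the half-sites began at -129 and -66, in Fosb at -60 and in Junb at -106, counted from the start. The TATA box letters stood at -33 to -28 in Fos and at 1 to 6 in Junb, and occur in 13.6% of all promoters. The deposited coordinates start Junb at 84978718 and Btg2 at 134079120, each on the minus strand and downstream of its RefSeq start. Counted from the deposited starts, the elements of these genes would lie farther upstream. Neither the AP-1 site TGANTCA nor the CArG box, the element of serum response factor, was found in any of the 8 windows, against 7.79% and 1.64% of all promoters. The Jund window, chr8:70697489-70697788, ends before the deposited start of Jund at 70698949. The Fosl2 window, chr5:32136222-32136521, begins after the deposited start of Fosl2 at 32135801. For these genes, which are among the 8, the windows therefore do not show the sequence at the deposited start. A match in letters is not evidence of binding, and elements outside this window were not searched.

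Library totals were 61303274 to 64983755 counts with baicalin and 65989141 to 67957752 with saline. The mitochondrial share of counts was 7.71 to 8.69% in the baicalin group and 7.18 to 7.82% in the saline group. All 7 dentate granule cell markers and all 7 CA1 pyramidal cell markers, among them Prox1, C1ql2, Wfs1 and Fibcd1, averaged at least 1 FPKM. In whole tissue, fewer cells of a type and less RNA per cell cannot be told apart. Saline library 2 held the lowest summed level of dentate markers in CPM, counts scaled to the library total after TMM adjustment (303 CPM, against 433 and 469 in the other saline libraries and 451 to 467 with baicalin). Saline library 3 held the highest sum over 5 markers of the meninges, the tissue that surrounds the brain, of which 3 averaged at least 1 FPKM and none was at 0 (86.4 CPM, against 48.5 and 55.7 in the other saline libraries and 51.9 to 55.1 with baicalin).

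With baicalin, the fitted level of Fos was 30.1% lower than with saline, that of Arc 27.9% lower, that of Fosb 25.0% lower and that of Junb 20.7% lower, while Btg2 was 1.26-fold higher. Jun was 1.16-fold higher, and Fosl2, Jund, Npas4 and Ier2 lay closer to no difference. For each of these last genes the SE of the log2 change was larger than the change, at up to 0.155 for Ier2. Of all genes tested, 1.34% had a lower log2 change than Fos, 1.76% a lower one than Arc and 94.4% a lower one than Btg2. No gene of the 10 passed the adjusted threshold of 0.05. In edgeR's quasi-likelihood test, 9 of the 10 were tested at a mean of at least 1 FPKM (fragments scaled to transcript length and library size), 0 passed, and their adjusted p ran from 0.360 to 0.886. Among all 13153 genes tested, 0.0456% passed. DESeq2, which called 1.61% of all genes, and limma on log2(FPKM + 1) also called 0 of the 10. At an unadjusted p under 0.05 in edgeR there were 4 of the 9, with Fos, Arc and Junb lower and Btg2 higher with baicalin. The share of all genes at that unadjusted p was 5.46% in the lower direction and 6.34% in the higher. Of the 9, 7 had negative log2 changes (baicalin minus saline), and their median was -0.063, against -0.00063 over all genes tested, of which 50.2% were negative. Under TPM scaling 7 of the 9 were again negative but so were 70.2% of all genes, whose median was then -0.078. The groups were separate, with no overlap in level, for Fos (lower) and Btg2 (higher), where 9.52% of all genes tested were separate in the lower direction and 9.93% in the higher.

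**Figure D1:**
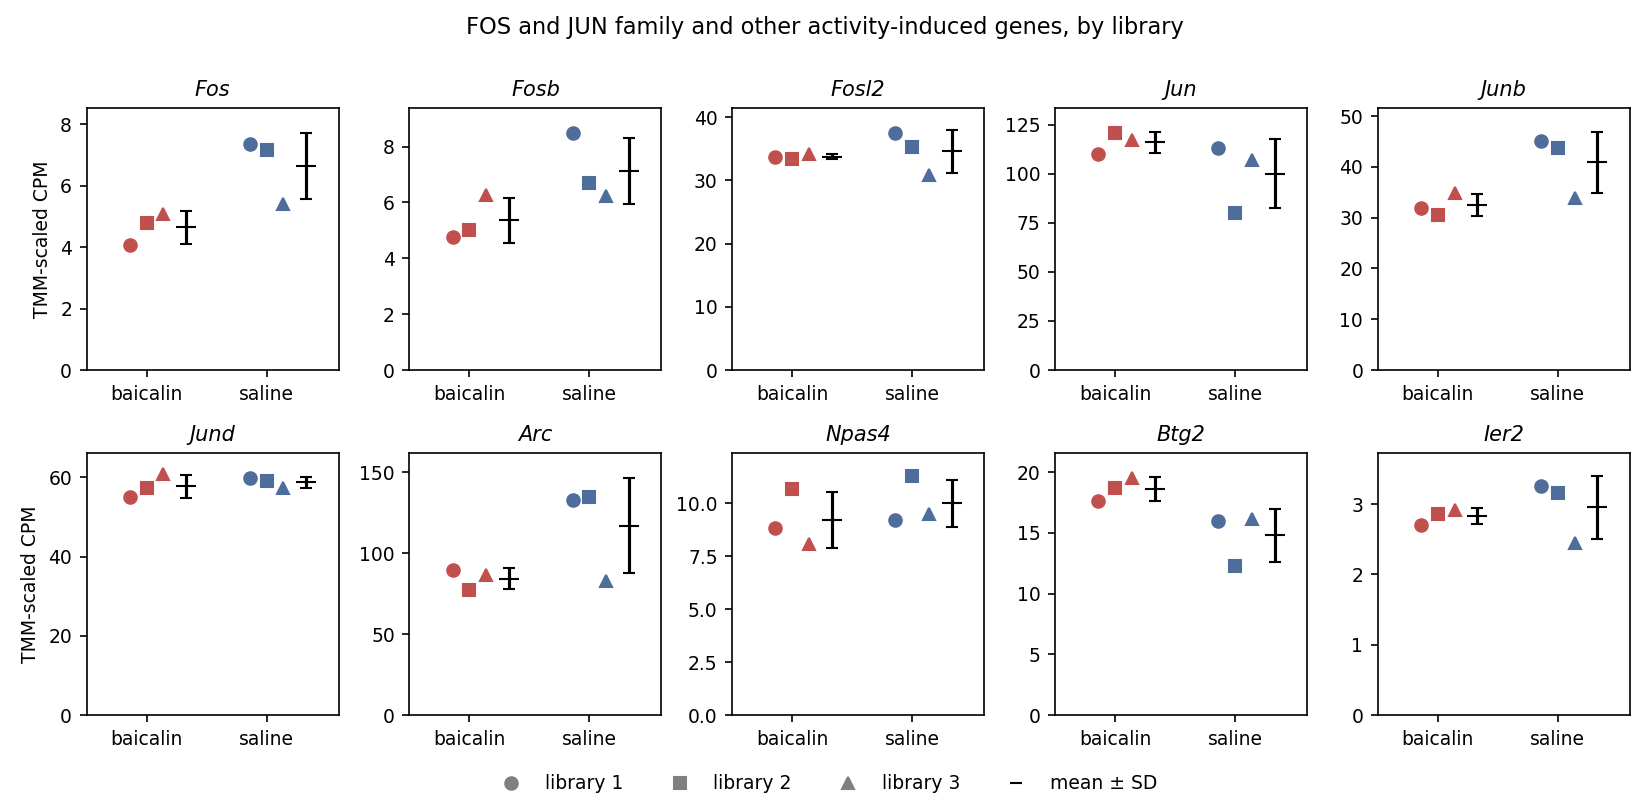
Level of each of the 10 genes in TMM-scaled CPM (y axes from 0), with the 3 baicalin libraries left of the 3 saline libraries; the marker shape gives the library number and the black bar the mean ± SD. Saline libraries 1 and 2 lie above the baicalin libraries for Fos, Fosb, Junb and Arc while saline library 3 lies close to or among them, and saline library 2 is the low point for Jun and Btg2.

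Fos (ENSMUSG00000021250, chromosome 12, 85473890 to 85477273, mm10) encodes the AP-1 subunit most used as a mark of neuronal activity. It had 4.06, 4.79 and 5.08 TMM-scaled CPM in baicalin libraries 1, 2 and 3, against 7.36, 7.14 and 5.41 in saline libraries 1, 2 and 3. The groups were separate, but only just, since saline library 3 lay close to the highest baicalin library. The mean was 4.64 ± 0.527 CPM with baicalin and 6.64 ± 1.07 in saline libraries (SD, n = 3 each). The log2 change of -0.52 ± 0.16 (SE), a level 30.1% lower, did not pass (adjusted p = 0.360 in edgeR).

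Fosb (ENSMUSG00000003545, chromosome 7, 19302696 to 19310051) encodes a subunit whose truncated form, deltaFosB, builds up in neurons under repeated stimulation. The table has 1 row for the gene, so the full and truncated transcripts cannot be told apart. Fosb had 4.78, 5.02 and 6.26 CPM with baicalin, against 8.48, 6.69 and 6.24 with saline. The highest baicalin library reached the lowest saline library, so the groups overlapped. At a mean of 0.863 FPKM it lay below the filter. In a fit with the filter lowered to 0.5 FPKM, chosen after seeing the data, its log2 change was -0.41 ± 0.17 (SE; adjusted p = 0.446 in edgeR), and did not pass. Without saline library 1 it was -0.27.

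Fosl2 (ENSMUSG00000029135, chromosome 5, 32135801 to 32157842) encodes Fra-2, a FOS relative without the strong activation domain of FOS. Its levels were 33.7, 33.4 and 34.2 CPM with baicalin, against 37.5, 35.3 and 30.8 with saline. The baicalin libraries lay inside the saline range, and the log2 change was -0.035 ± 0.083 (SE; adjusted p = 0.881 in edgeR). Without saline library 1 it was 0.029, and it was also positive, at 0.025, with the trend in exon length removed.

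In FPKM, a unit per transcript length that lets genes be set beside each other, Fosl2 was the most abundant FOS family transcript at a mean of 3.06 over the 6 libraries, ahead of Fos at 2.07 and Fosb at 0.863. Fos made up 28.9 to 32.2% of the summed FPKM of the 3 genes with baicalin and 35.4 to 39.1% with saline, ranges that were separate. Fosl2 made up 52.9 to 58.4% with baicalin and 46.4 to 49.2% with saline. These shares are formed within a library and so do not depend on scaling between libraries. They are not independent of each other, since a lower share of any gene raises the rest. The level of Fosl2 itself overlapped between the groups. The shares are given as a description, with no test, and how often such shares are separate in other gene families was not examined.

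Junb (ENSMUSG00000052837, chromosome 8, 84974484 to 84978718) encodes the activity-induced JUN subunit. It had 31.8, 30.6 and 34.8 CPM with baicalin, against 45.0, 43.6 and 33.9 with saline. Saline library 3 fell inside the baicalin range while the other saline libraries stood well above it. The mean was 32.4 ± 2.17 CPM with baicalin and 40.9 ± 6.03 in saline libraries (SD, n = 3 each), and the log2 change of -0.33 ± 0.12 (SE) did not pass (adjusted p = 0.393 in edgeR). Over 351 bases Junb overlaps Prdx2, a peroxiredoxin gene on the opposite strand with a mean of 48.0 FPKM. The sources used here do not say whether strand was used in counting, so reads of that stretch cannot be assigned to either gene with certainty.

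Jun (ENSMUSG00000052684, chromosome 4, 95049034 to 95052222) encodes the JUN subunit that the stress-activated kinases JNK1 to JNK3 phosphorylate. It had 110.2, 121 and 117 CPM with baicalin, against 113, 79.9 and 107 with saline. The ranges overlapped, and saline library 2 lay far below all the others. Without saline library 2 the log2 change was 0.075, against 0.21 ± 0.13 (SE; adjusted p = 0.543 in edgeR) with all 6. Saline library 2 also held the lowest dentate marker sum given above, and the part of that in the level of Jun was not tested.

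Jund (ENSMUSG00000071076, chromosome 8, 70698949 to 70700616) encodes a subunit that is present at rest. It had 55.1, 57.4 and 60.9 CPM with baicalin, against 59.7, 59.1 and 57.3 with saline. The ranges overlapped widely and the log2 change was -0.024 ± 0.058 (SE; adjusted p = 0.886 in edgeR), with a value of 0.0054 without baicalin library 1. Both Jun and Jund have antisense partners, Junos and Gm11175, but these were at only 0.145 and 0.148 FPKM.

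Per transcript length, Jund at a mean of 30.3 FPKM and Jun at 29.4 stood level, and Junb was lower at 13.8. Jun plus Junb plus Jund summed to 73.6 ± 2.72 FPKM with baicalin and 73.3 ± 5.32 in saline libraries (SD, n = 3 each), a difference smaller than either spread. Within that sum, Junb made up 15.5 to 17.1% with baicalin and 17.8 to 23.9% with saline, and these ranges were separate. Jun made up 41.6 to 44.3% with baicalin and 31.5 to 40.6% with saline, also separate. These shares too are not independent of each other, and the levels of Jun and Junb themselves overlapped between the groups. Saline library 3 came nearest to the baicalin range for both shares, with Junb at 17.8% and Jun at 40.6%. How often such shares are separate in other gene families was not examined, and the shares were not tested.

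Arc (ENSMUSG00000022602, chromosome 15, 74669083 to 74672570) encodes a synaptic protein whose mRNA travels into dendrites. It had 89.4, 77.1 and 86.5 CPM with baicalin, against 133, 135 and 83.2 with saline. Saline libraries 1 and 2 stood far above all other libraries, whereas saline library 3 lay in the middle of the baicalin range. The highest saline library exceeded the lowest 1.62-fold, against 1.16-fold within the baicalin group. Means were 84.3 ± 6.43 CPM with baicalin and 117 ± 29.3 in saline libraries (SD, n = 3 each). The log2 change was -0.47 ± 0.18 (SE; adjusted p = 0.408 in edgeR). Leaving out saline library 3 gave -0.67 and an adjusted p of 0.112 in edgeR, leaving out saline library 2 gave -0.36, and Arc passed in neither.

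Npas4 (ENSMUSG00000045903, chromosome 19, 4984355 to 4989971 in the deposited table) encodes the activity-dependent factor that answers to calcium entry more selectively than the others. It had 8.85, 10.7 and 8.10 CPM with baicalin, against 9.23, 11.3 and 9.50 with saline. The ranges overlapped, each group had its highest value in library 2, and the log2 change was -0.12 ± 0.14 (SE; adjusted p = 0.748 in edgeR). Among the saline libraries Npas4 was lowest in library 1, where Fos and Arc were lowest in library 3. Without saline library 2 its log2 change was -0.024. Npas4 averaged 2.54 FPKM, beside 2.07 for Fos and 28.5 for Arc.

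Btg2 (ENSMUSG00000020423, chromosome 1, 134075170 to 134079120) encodes an antiproliferative protein that recruits the CCR4-NOT deadenylase to mRNA. It had 17.6, 18.7 and 19.6 CPM with baicalin, against 15.9, 12.3 and 16.1 with saline. Every baicalin library was above every saline library, with saline library 2 lowest of all. Means were 18.6 ± 0.970 CPM with baicalin and 14.8 ± 2.17 in saline libraries (SD, n = 3 each), and the log2 change of 0.33 ± 0.12 (SE) did not pass (adjusted p = 0.395 in edgeR). Without saline library 2, the library with the lowest dentate markers, it was 0.21. The part of the dentate difference in this was not tested.

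Ier2 (ENSMUSG00000053560, chromosome 8, 84661331 to 84662852) encodes a small nuclear protein of the early growth response. Its levels were 2.70, 2.86 and 2.92 CPM with baicalin, against 3.26, 3.16 and 2.44 with saline. Saline library 3 was the lowest of all 6 and the other saline libraries the highest. The log2 change was -0.063 ± 0.155 (SE; adjusted p = 0.886 in edgeR), and it was 0.013 without saline library 1. Ier2 was the least abundant of the 10 by reads, at 165 to 214 counts per library.

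**Figure D2:**
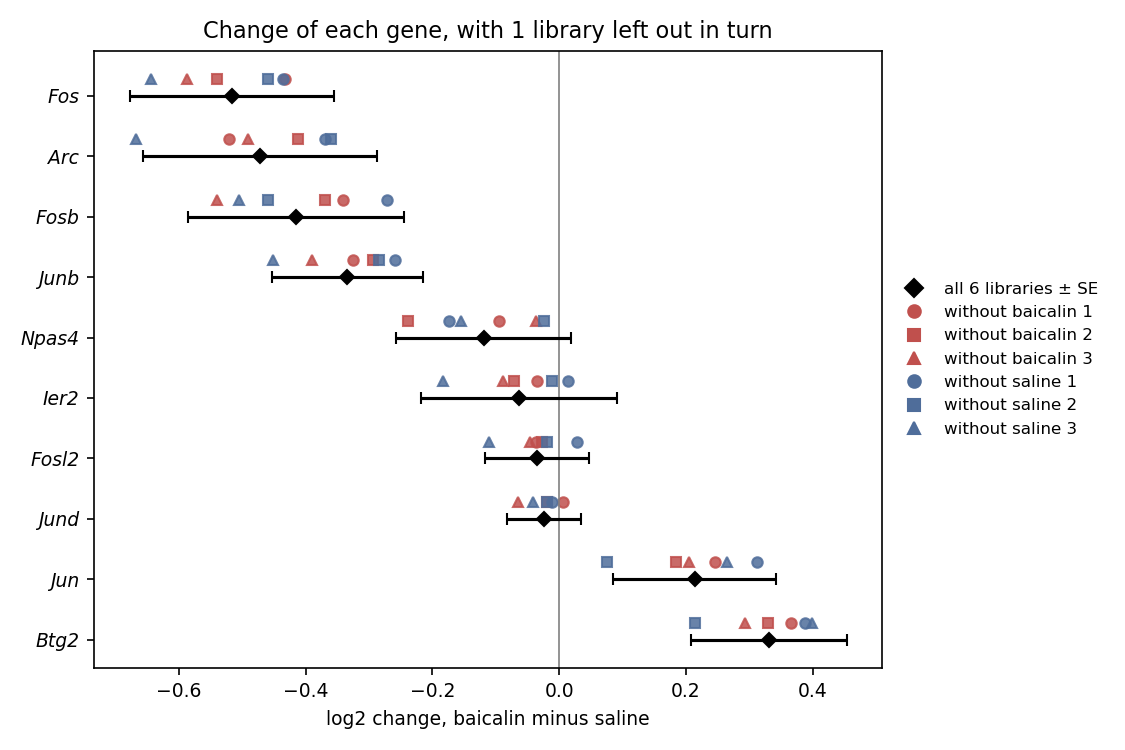
Log2 change of each gene, baicalin minus saline (x axis), with all 6 libraries (black diamond, ± SE) and with 1 library left out in turn (coloured markers above it). Fos, Arc, Fosb and Junb stay below 0 and Jun and Btg2 above 0 in each of these fits, while Ier2, Fosl2 and Jund lie around 0; Fosb comes from the fit with the lower filter.

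The libraries did not contribute evenly to these differences. Among the saline libraries, 7 of the 10 genes were lowest in library 3, 2 in library 2 and 1 in library 1, where 36.1% of all genes tested were lowest in saline library 3. Of 31 other immediate early genes tested, 12 were lowest in saline library 3, 11 in saline library 1 and 8 in saline library 2. Without saline library 3, 6 of the 10 genes (Fos, Fosb, Fosl2, Junb, Arc and Ier2) were separate and lower with baicalin, against 1 with all libraries, while 15.2% of all genes tested were separate in that direction without it. Since that library was the lowest of its group for most of the 10, its removal favours such separation. The number was 1 without baicalin library 1, 2 without baicalin library 2 and 3 without baicalin library 3, against 16.4%, 15.1% and 13.0% of all genes tested. It was 1 without saline library 1 and 1 without saline library 2, against 14.8% and 13.8% of all genes tested. The meningeal marker sum was highest in saline library 3. Its part in the lower levels of Fos, Junb, Arc and Ier2 there was not tested.

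Marker sums of CA1 pyramidal cells and of excitatory neurons were separate between the groups and lower with baicalin, while those of dentate granule cells and of CA2 and CA3 pyramidal cells overlapped. Of all single genes tested, 9.52% were separate in that direction. The sum over 7 CA1 markers was 979 to 1111 CPM with baicalin and 1130 to 1202 with saline, and 6 of the 7 had negative log2 changes with a median of -0.27, of which 0 passed in edgeR. The sum over 4 markers of excitatory neurons was 5193 to 5602 CPM with baicalin and 5677 to 5962 with saline, with 3 of the 4 negative and 0 past the threshold. A sum gives most weight to the most abundant marker. With each of the 4 taken as log2 CPM minus its own mean and then averaged, the groups overlapped. Baicalin library 3 was at 0.013 and saline library 3 at -0.015. Of the 7 dentate markers 5 were positive, with a median log2 change of 0.25. The sum over 6 CA2 and CA3 markers, of which 5 averaged at least 1 FPKM, was 338 to 378 CPM with baicalin and 350 to 392 with saline, with 3 negative, 2 positive and a median of -0.012. No marker of these 4 lists was at 0, and 0 passed in edgeR. The part of these markers in the levels of Fos, Arc and Junb was not tested. Sums over 5 astrocyte markers were 1161 to 1212 CPM with baicalin and 1170 to 1263 with saline, and those over 6 microglial markers were 204 to 241 CPM with baicalin and 210 to 232 with saline, so these overlapped. The sums for interneurons, oligodendrocytes and endothelium overlapped as well.

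**Figure D3:**
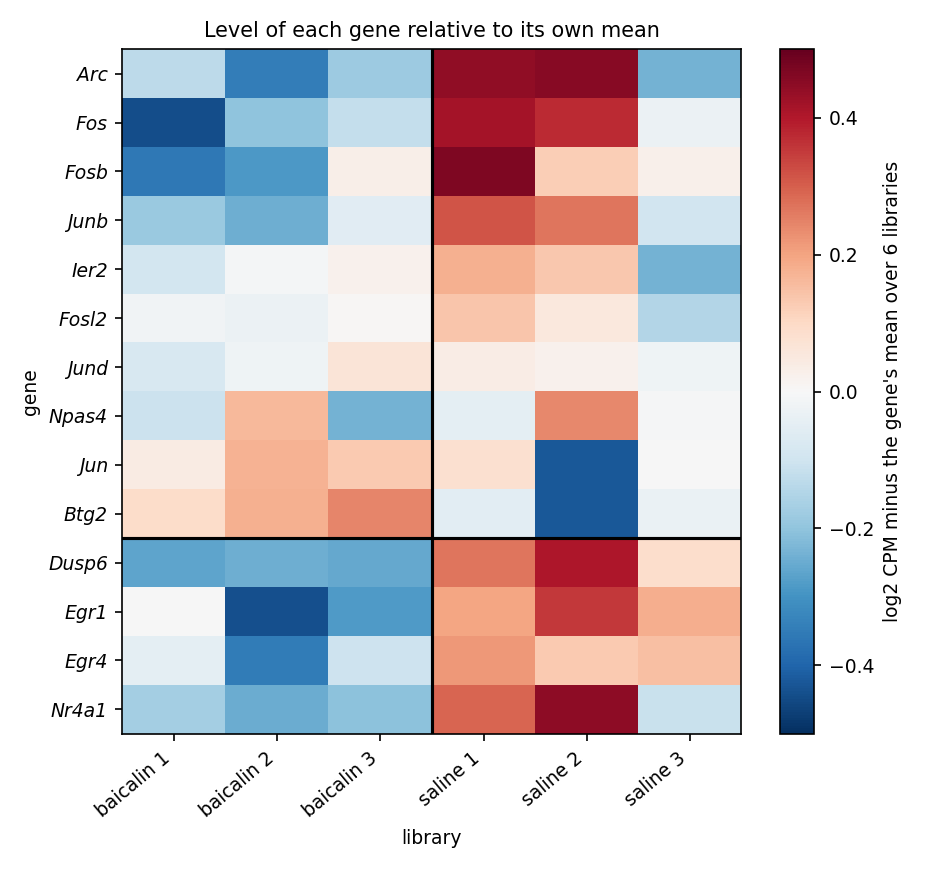
Log2 CPM of each gene minus its own mean over the 6 libraries (colour, from -0.5 to 0.5), with baicalin libraries left of the vertical line and saline libraries right of it; below the horizontal line are 4 other immediate early genes. Saline libraries 1 and 2 are above the mean for Arc, Fos, Fosb and Junb, saline library 3 is not for Arc, Fos and Junb, and Jun and Btg2 share a low value in saline library 2.

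The 10 genes fell into unlike patterns over the 6 libraries. Likeness was measured as the root-mean-square difference in log2 CPM after each gene was centred on its own mean, over 6 libraries. Jun and Btg2 differed by only 0.075, Fosl2 and Ier2 by 0.061, and Fos and Junb by 0.13. Arc was nearest to Junb at 0.13 and farthest from Btg2 at 0.51. Among the other genes tested, those most like Fos were Eml4 (0.092), Ralgapb (0.093) and Ak4 (0.096), where the median over all others was 0.33. Those most like Arc were Gm44898 (0.069), Pcmtd1 (0.091) and Nr4a1 (0.092), with a median of 0.35 over all others. These are a description only.

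Other immediate early genes were lower more often than not, but 0 of 31 tested passed in edgeR in either direction. At an unadjusted p under 0.05 in edgeR there were 4, all lower, against 5.46% of all genes tested in that direction. Of the 31, 24 had negative changes, against 50.2% of all genes tested. The median of the 31 was -0.17, which was -0.085 without saline library 2. Their groups were separate and lower with baicalin in 7, and separate and higher in 0. Of all genes tested, 9.52% were separate in the lower direction and 9.93% in the higher. Dusp6, a phosphatase that switches off ERK, had 46.9, 47.6 and 47.2 CPM with baicalin, against 67.8, 74.6 and 59.8 with saline (log2 change -0.51 ± 0.09, SE; adjusted p = 0.213 in edgeR). The baicalin libraries were almost equal and all saline libraries stood clear of them. Egr1, a zinc finger factor induced together with Fos, had 92.2, 68.0 and 75.7 CPM with baicalin, against 106, 118 and 105 with saline (log2 change -0.48 ± 0.12, SE). Nr4a1, an orphan nuclear receptor, had 48.1, 45.6 and 46.9 CPM with baicalin, against 66.2, 73.8 and 50.1 with saline. As for Arc, saline library 3 was the lowest of its group, though for Nr4a1 it stayed above the baicalin libraries. Egr4, a relative of Egr1, had a log2 change of -0.33 ± 0.10 (SE; adjusted p = 0.360 in edgeR).

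No other AP-1 subunit passed. Of 13 listed genes 8 were tested, and 0 passed in edgeR at either an adjusted or an unadjusted p under 0.05. Of the 8, 7 were negative, against 50.2% of all genes tested. The median of the 8 was -0.079, which was -0.028 without saline library 2. Atf2, which pairs with JUN, had 112, 105 and 106 CPM with baicalin, against 114, 117 and 112 with saline (log2 change -0.086 ± 0.044, SE; adjusted p = 0.487 in edgeR). Mafg and Maf, of the MAF branch, were at -0.071 ± 0.058 and -0.14 ± 0.12 (log2 change, SE). Atf7, a relative of Atf2, had 41.4, 48.4 and 10.2 CPM with baicalin, against 50.3, 43.1 and 50.3 with saline, and its log2 change of -0.52 ± 0.50 (SE) came from baicalin library 3. Batf, Batf2, Batf3, Atf3 and Maff lay below the filter.

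Among 21 genes upstream of AP-1, which include the JNK and ERK kinases, serum response factor with its partners and CREB with its coactivators, 11 were negative and 10 positive with a median of -0.017, and 0 passed in edgeR. At an unadjusted p under 0.05 in edgeR there was 1, lower, against 5.46% of all genes tested in that direction. That gene was Srf, the factor that binds CArG boxes, with 32.0, 31.9 and 33.7 CPM with baicalin, against 37.1, 36.4 and 36.7 with saline. The groups were separate and each was tight, but the log2 change was small at -0.18 ± 0.05 (SE; adjusted p = 0.360 in edgeR). Of the 21 genes, 3 were separate and lower with baicalin and 2 separate and higher, against 9.52% and 9.93% of all genes tested. Ep300, a histone acetyltransferase recruited by CREB, was at -0.16 ± 0.07 and Mapk3, which encodes ERK1, at 0.23 ± 0.12 (log2 change, SE). Mapk3 had its lowest value, 106 CPM, in saline library 2, as Jun and Btg2 did. Mef2c, a neuronal MADS-box factor, had 24.1, 27.9 and 35.4 CPM with baicalin, against 35.9, 36.0 and 103.9 with saline, so that saline library 3 gave most of its log2 change of -1.01 ± 0.44 (SE; adjusted p = 0.437 in edgeR).

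**Figure D4:**
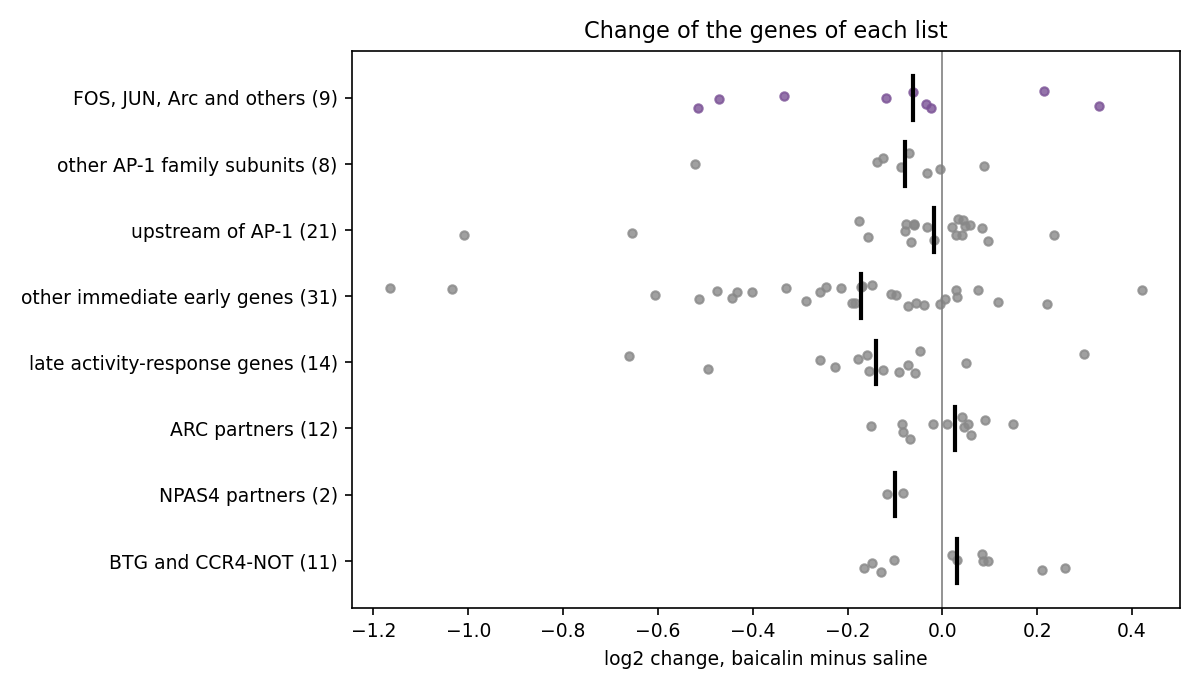
Log2 change of each tested gene, baicalin minus saline (x axis), by list, with the number tested in brackets, the 10 genes of the report without Fosb at the top (purple) and a black bar at each median; the vertical spread within a row has no meaning. Medians lie between -0.17 for other immediate early genes and 0.030 for BTG and CCR4-NOT genes.

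Late activity-response genes, the effectors that follow the immediate early factors, gave 0 passing of 14 tested in edgeR. At an unadjusted p under 0.05 in edgeR there were 2, both lower, against 5.46% of all genes tested in that direction. Of the 14, 12 were negative, against 50.2% of all genes tested. The median of the 14 was -0.14, which was -0.081 without baicalin library 3 and -0.088 without baicalin library 2. Gpr3, a receptor that raises cAMP, had 3.49, 2.76 and 3.64 CPM with baicalin, against 4.57, 5.36 and 4.01 with saline (log2 change -0.49 ± 0.17, SE; adjusted p = 0.382 in edgeR). Vgf, a secreted neuropeptide precursor, had 44.1, 40.2 and 45.8 CPM with baicalin, against 49.5, 53.8 and 102.7 with saline. Most of its log2 change of -0.66 ± 0.27 (SE) again came from saline library 3. Sorcs3 was at -0.23 ± 0.11 and Rgs4, a brake on G protein signalling, at -0.13 ± 0.07 (log2 change, SE), neither past the threshold.

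No gene for a partner of ARC, NPAS4 or BTG2 passed. Of 12 genes for ARC partners, 5 were negative and 7 positive (median 0.026), with 0 at an adjusted or an unadjusted p under 0.05 in edgeR. Among those nearest to the threshold were Rnf216, a ubiquitin ligase that acts on ARC (log2 change -0.086 ± 0.068, SE), Wasf1 (-0.083 ± 0.070) and Cacng2 (-0.069 ± 0.059). Arnt and Arnt2, whose products dimerize with NPAS4, were at -0.12 ± 0.07 and -0.083 ± 0.057 (log2 change, SE), and 0 of these 2 passed in edgeR at either p. Among 11 genes of the BTG family and the CCR4-NOT complex, 4 were negative and 7 positive (median 0.030), and 0 passed. At an unadjusted p under 0.05 in edgeR there was 1 lower, Cnot3, and 1 higher, Tob1. The shares of all genes tested were 5.46% in the lower direction and 6.34% in the higher. Btg1, the closest relative of Btg2, had 44.2, 44.6 and 45.2 CPM with baicalin, against 41.9, 31.1 and 39.1 with saline, so that saline library 2 was its lowest too. Its log2 change was 0.26 ± 0.11 (SE; adjusted p = 0.436 in edgeR). Tob1, of the same family, was at 0.21 ± 0.08, and the complex subunits Cnot3 and Cnot6 at -0.15 ± 0.06 and -0.13 ± 0.07 (log2 change, SE).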

How the data were processed

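The deposited table gives, for each gene and library, a whole-number count and an FPKM value, the authors' level scaled to transcript length and mapped fragments, per the file headers. The submitters' processing notes name the build mm10 and HISAT2, StringTie, limma, DESeq2 and bcl2fastq 2.0, without saying how each was used. No label matches another 12 columns, which were left out. Total RNA was depleted of ribosomal RNA, per the labels' protocols.

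For the 13153 genes averaging 1 FPKM or more, the deposited counts were scaled by TMM and tested with edgeR 4.0.16 under R 4.3.3 (quasi-likelihood, treatment as the only term, no replicate block), with Benjamini-Hochberg adjustment over all genes tested. Standard errors were the absolute log2 change over the square root of the F statistic. DESeq2 1.42.0 and limma 3.58.1 were alternatives. The procedure was tested on simulated data. The 10 genes and all gene lists were chosen with earlier results of these data known. Named from each other list are the genes past the threshold or, with none, the 4 of smallest p, and for Fos and Arc the 3 most alike genes; 1 gene that this names is not reported here. Exon lengths came from GENCODE mouse release 21, where all members but Npas4 have the deposited coordinates. Promoters are RefSeq's, on GRCm38.p6. No 2 libraries of a group agreed within sampling noise (chi-square per gene of 46.3 to 66.1).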

Additional observations from a re-analysis of the deposited data

How the results depend on the processing

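Of the 10 genes described, 0 passed the threshold under any of the alternatives, which covered scaling, filters, DESeq2, limma on log2(FPKM + 1) and log2(FPKM + 0.1), a robust variance, removal of the exon length trend, a replicate block and each library left out. Wherever they were tested, Fos, Fosb, Junb, Arc and Npas4 stayed negative and Jun and Btg2 positive. With 1 library left out, the log2 change of Fosl2 ran from -0.11 to 0.029, that of Jund from -0.064 to 0.0054 and that of Ier2 from -0.18 to 0.013. Removal of the length trend put Fosl2 at 0.025. The median over the genes tested ran from -0.16 (without saline library 3) to -0.011 (without saline library 1) when 1 library was left out. Medians that changed sign were those of genes upstream of AP-1, at 0.037 with the length trend removed, 0.021 with a mean of at least 5 FPKM and -0.058 to 0.0091 with 1 library left out (0.0043 without baicalin library 3), of ARC partners, at -0.053 under TPM scaling (0.0052 to 0.045 with 1 library left out), and of BTG and CCR4-NOT genes, at -0.047 under TPM scaling and -0.011 to 0.078 with 1 library left out.

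Over the whole table, 6 genes were past the threshold in edgeR, 211 in DESeq2 and 2 to 39 with 1 library left out (2 when baicalin library 3 was dropped, 39 when baicalin library 1 was, 10 without saline library 2 and 14 without saline library 3). With a replicate block there were 0. Same-numbered libraries correlated in their deviations from the group means at 0.138, 0.094 and 0.035, and each correlated best with its own number. The labels give no batch, and whether same-numbered libraries share more than a number was not tested. The cause of the shifts in the counts of genes past the threshold was not tested.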

Other observations

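Some genes of the lists had 1 library far from the other 5, given here as values. Mef2c had 103.9 CPM in saline library 3, against 24.1 to 36.0 elsewhere. Vgf had 102.7 CPM in the same library, against 40.2 to 53.8 elsewhere. Atf7 had 10.2 CPM in baicalin library 3, against 41.4 to 50.3 elsewhere. These were singled out after their values were seen.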
